A study of Mus musculus with 12 samples.

Results

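Transcripts of 10 interferon-inducible GTPases were examined in bone marrow-derived macrophages (BMDMs), macrophages that were grown from mouse marrow in culture. The members were *Gbp2*, *Gbp3*, *Gbp5*, *Gbp6*, *Gbp7*, *Gbp8* and *Gbp9* of the guanylate-binding proteins and *Irgm1*, *Irgm2* and *Igtp* of the immunity-related GTPases. They were chosen by symbol, and all 10 were found among the 48526 genes of the table. The cells came from 3 female C57Bl/6J mice, for which the labels give no age and no altered allele, and were grown with macrophage colony-stimulating factor until day 7. From each mouse there were untreated cells and cells given 100 pg/mL IL-4, 100 ng/mL Wnt3a, or Wnt3a together with IL-4, with 16 hr of treatment. Each column holds the cells of 1 animal, and treatments of the same mouse carry its number.

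The values are numbers of reads counted on each gene. Within a mouse, reads are shared by the columns labelled Wnt3a and Wnt3a+IL-4: in 0 of 48526 genes did the Wnt3a count of a mouse fall outside the range from 1 to 2 times its Wnt3a+IL-4 count, against 6681 to 8625 genes when columns of different mice were set together. They were therefore solved, mouse by mouse, into parts: subtracting Wnt3a+IL-4 from Wnt3a gave the difference, and subtracting the difference from Wnt3a+IL-4 gave the remainder. Both parts stem from Wnt3a-treated cells, and the labels do not say which of them had also received IL-4. The 12 libraries of the untreated, IL-4, difference and remainder groups, with 3 mice in each, held between 13342492 and 17453377 counts. Levels are given as CPM, the count scaled to a fixed library total after TMM normalisation.

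Guanylate-binding proteins (GBPs) and immunity-related GTPases (IRGs) are large GTPases that macrophages make in response to interferons. Interferon-γ acts through the kinases JAK1 and JAK2 and the GAS motif in promoters, and type I interferons act mainly through the ISRE motif, which a complex with STAT2 and IRF9 binds. The proteins gather on vacuoles that hold bacteria or parasites, where GBPs help to break the membrane and expose the microbe to the cytosol. IRGM proteins such as those made from *Irgm1*, *Irgm2* and *Igtp* keep the effector GTPases away from the cell's own membranes.

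Levels of 9 of the 10 GTPase transcripts rose in both parts of the Wnt3a-treated cells, and 0 of 10 passed the test with IL-4 alone, where 3.40% of all genes tested were called. The largest level differences were those of *Gbp2*, which went from 16.3 ± 3.26 CPM (SD, n = 3) in untreated cells to 82.5 ± 15.0 CPM in the difference and 117 ± 13.0 CPM in the remainder, and of *Irgm1*, which went from 86.9 ± 10.3 to 196 ± 27.2 and 193 ± 15.8 CPM. In the difference, 9 of 10 members passed the test as higher (edgeR's quasi-likelihood test, Benjamini-Hochberg adjusted p under 0.05), against 11.8% of the 12421 genes tested that were higher and 23.2% that changed in either direction. In the remainder the count was also 9 of 10, against 13.6% higher and 25.3% in either direction. Both counts include *Gbp6*, which passed the filter on low counts only through the difference and remainder libraries. The median log2 fold change of the 10 members was 1.31 in the difference. In the remainder it was 1.22, and the medians over all genes tested were -0.01 and -0.02. In bulk RNA, fewer cells of a type and less RNA per cell cannot be told apart. Both comparisons use the same untreated libraries. Under scaling by total counts alone, the all-gene medians moved to -0.10 and -0.13, and the genes called higher went from 50.7% of the calls to 33.6% in the difference and from 53.8% to 35.6% in the remainder. Under that scaling 9 and 7 of 10 members were still called higher, against 1131 and 1293 of the 12421 genes tested.

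**Figure D1:**
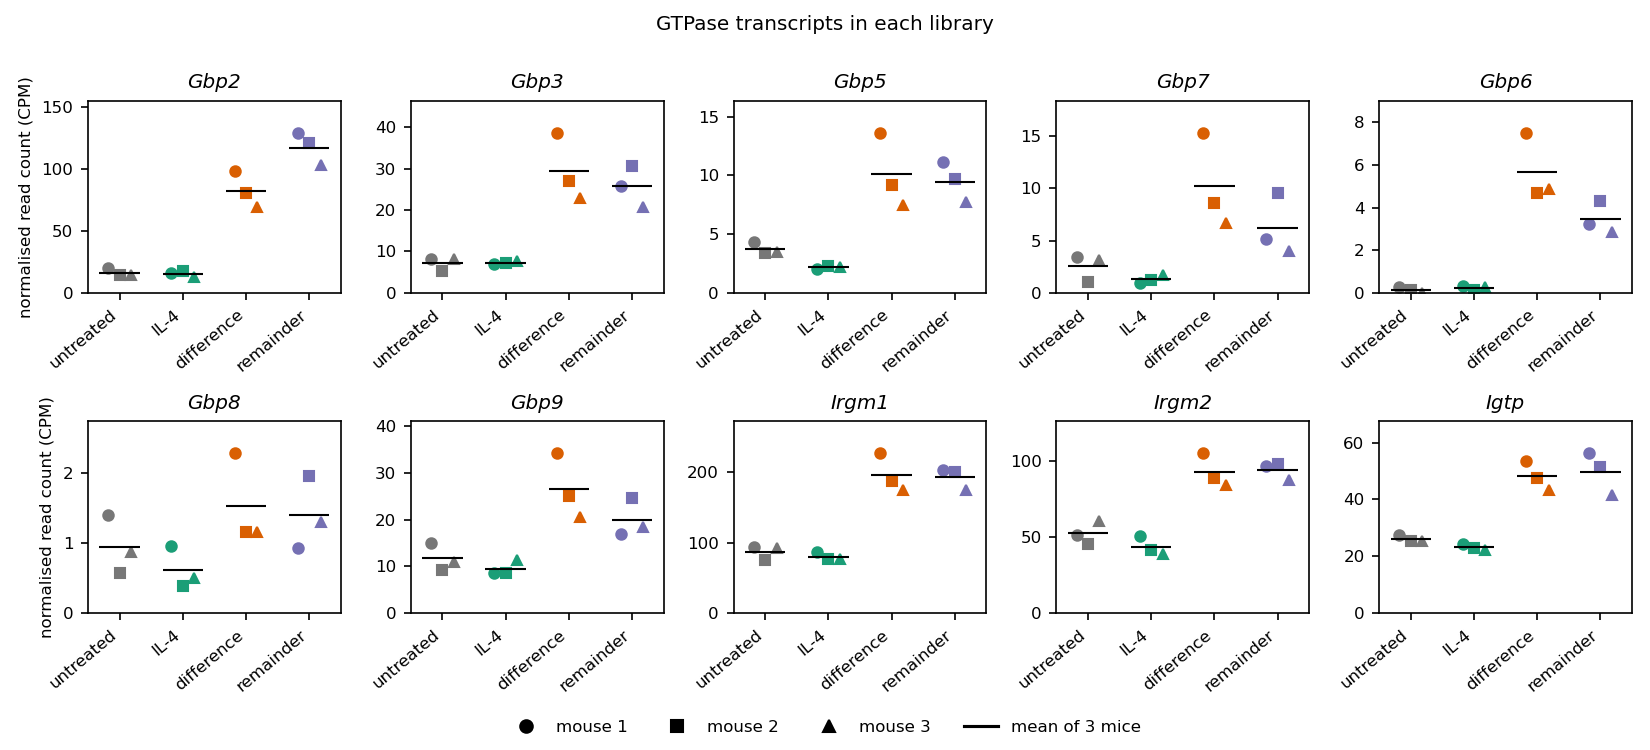
Normalised read count (CPM, linear axis from 0) of each GTPase in the 12 libraries; a symbol marks the mouse and a horizontal line the mean of 3 mice. In 9 of 10 panels every difference and remainder library lies above every untreated library, and *Gbp8* is the panel in which they overlap.

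The members lie in separate gene clusters of the mm10 genome. *Gbp2*, *Gbp3*, *Gbp5* and *Gbp7* lie on chromosome 3 between 142493978 and 142638008, and *Gbp6*, *Gbp8* and *Gbp9* on chromosome 5 between 105014150 and 105293698. *Irgm1* (48861968 to 48871683), *Irgm2* (58199618 to 58222782) and *Igtp* (58199556 to 58207591) are on chromosome 11. The median log2 fold change in the difference was 2.02 for the chromosome 3 genes, 1.18 for the chromosome 5 genes and 0.89 for the chromosome 11 genes. In the remainder these medians were 1.59, 0.76 and 0.93, and the ranges within the chromosome 3 and 5 clusters, from 1.28 to 2.84 and from 0.54 to 4.56, were wider than the gaps between them.

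The promoter sequences are shown because interferon-responsive factors recognise short motifs there. RefSeq promoter windows of build GRCm38.p6, which run from 250 bases before to 50 bases after a gene's start, were found for 7 of the 10 members and not for *Gbp6*, *Gbp8* and *Gbp9*. Both strands were searched for the ISRE core (GAAANNGAAA), the GAS motif (TTCNNNGAA) and the STAT6-type site (TTCNNNNGAA), which share letters and can overlap. The ISRE core was found in 7 of 7 members, against 3.99% of the 27025 genes with a window, and GAS in 4 of 7 (*Gbp5*, *Gbp7*, *Irgm2* and *Igtp*), against 9.55%. A STAT6-type match was found in 1 of 7, in the other of the 2 windows of *Gbp3*, against 8.01% of these genes. Among 9 other genes of both families with a window, 5 held an ISRE core, 3 a GAS motif and 0 a STAT6-type site. In *Gbp2* the ISRE core starts 59 bases before the RefSeq start, within the first exon of an annotated transcript, and is not printed. The stretches before the start of the other 6 members are given on the strand of the gene, with ISRE core and GAS matches in capitals; bases in exons of coding transcripts were left out.
Gbp3 (chr3:142559944-142560025, + strand): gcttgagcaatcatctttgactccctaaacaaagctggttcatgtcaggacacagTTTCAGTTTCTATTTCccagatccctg
Gbp5 (chr3:142496754-142496899, + strand): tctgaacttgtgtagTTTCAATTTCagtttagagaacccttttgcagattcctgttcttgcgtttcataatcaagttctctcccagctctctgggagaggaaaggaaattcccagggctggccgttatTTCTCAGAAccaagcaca
Gbp7 (chr3:142530216-142530335, + strand): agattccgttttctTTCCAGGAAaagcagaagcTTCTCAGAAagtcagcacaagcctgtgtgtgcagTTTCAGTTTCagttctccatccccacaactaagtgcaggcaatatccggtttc
Irgm1 (chr11:48871421-48871520, - strand): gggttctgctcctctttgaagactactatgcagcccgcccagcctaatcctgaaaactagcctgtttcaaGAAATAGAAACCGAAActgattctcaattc
Irgm2 (chr11:58214877-58214976, + strand): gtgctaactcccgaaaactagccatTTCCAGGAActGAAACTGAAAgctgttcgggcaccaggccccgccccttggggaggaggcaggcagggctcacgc
Igtp (chr11:58199456-58199555, + strand): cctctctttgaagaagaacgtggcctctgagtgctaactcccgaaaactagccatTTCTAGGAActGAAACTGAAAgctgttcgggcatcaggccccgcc

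In *Gbp3* and *Irgm1* the capitals hold 2 overlapping ISRE cores. The stretch of *Irgm1* lies in an exon of an annotated non-coding transcript of the gene. The windows of *Irgm2* and *Igtp* share an unbroken run of 61 bases, and in both the GAS match stands next to the ISRE core. The letters of the GAS match differ between these genes, so the shared run does not span the motif pair. These matches are letters in the reference genome, and binding was not measured.

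**Figure D2:**
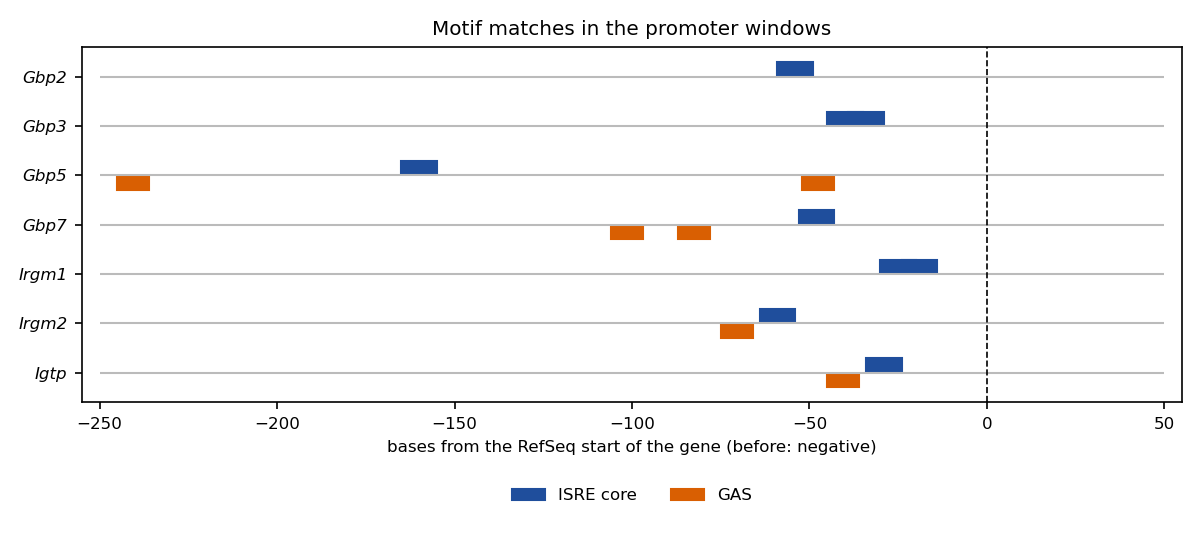
Positions of ISRE core and GAS matches in the promoter windows of 7 members, in bases from the RefSeq start (dashed line); for *Gbp3* the window with the ISRE cores is drawn. ISRE cores start between 165 and 24 bases before the start of the gene.

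Among the chromosome 3 genes, *Gbp2*, which encodes a GBP with a lipid-anchored tail that targets pathogen vacuoles, had 373, 221 and 233 counts in the untreated libraries of mouse 1, 2 and 3. It had 1721, 1315 and 947 counts in the difference and 2071, 1964 and 1570 in the remainder. All 6 libraries of Wnt3a-treated cells were above every untreated library. The log2 fold change was 2.34 in the difference (standard error 0.16, 95% interval 1.99 to 2.68, adjusted p = 1.9e-07, edgeR) and 2.84 in the remainder (standard error 0.16, 95% interval 2.50 to 3.19, adjusted p = 2.6e-08, edgeR), or 5.05-fold and 7.18-fold.

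*Gbp3*, another GBP of this cluster, rose from 153, 80 and 128 counts in untreated cells to 675, 442 and 315 in the difference and 414, 499 and 314 in the remainder. Its log2 fold change was 2.05 (adjusted p = 8.9e-06, edgeR) in the difference and 1.84 (adjusted p = 2e-05, edgeR) in the remainder, and the groups did not overlap.
*Gbp5*, whose product takes part in inflammasome activation, had 81, 52 and 55 counts in untreated cells. It had 237, 150 and 103 in the difference and 178, 157 and 117 in the remainder, log2 fold changes of 1.44 (adjusted p = 0.00025, edgeR) and 1.34 (adjusted p = 0.00038, edgeR). Again each Wnt3a-treated library lay above all untreated ones.

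*Gbp7*, which has been linked to the delivery of defence proteins to vacuoles, had 64, 16 and 50 counts in untreated cells, 268, 141 and 92 in the difference and 83, 155 and 61 in the remainder. The log2 fold change of 2.0 in the difference (adjusted p = 0.003, edgeR) kept its call under every alternative run. That of 1.28 in the remainder (adjusted p = 0.04, edgeR) did not. The log2 ratios within a mouse were 0.57, 3.06 and 0.34, with mouse 2 far above the others. The fitted value fell to 0.49 without mouse 2 (adjusted p = 0.34, edgeR), to 0.84 without the mouse 2 remainder library and to 0.92 without the mouse 2 untreated library, and was not called in any of these. The call was also lost at larger values, 1.68 without mouse 3, 1.43 without the mouse 3 untreated library and 1.41 without the mouse 1 remainder library. With the mouse as a block its adjusted p in the remainder was 0.057 (edgeR). Other genes hold 12.7% of the 50-base stretches of *Gbp7*, and how shared reads were assigned is not given in the sources used here.

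*Gbp6* on chromosome 5 had the widest relative change. Its counts were 5, 2 and 0 in untreated cells, 131, 77 and 67 in the difference, and 52, 70 and 43 in the remainder. It was close to the floor of detection in the untreated and IL-4 libraries and clearly detected in every Wnt3a-treated library. Summed over 3 mice, 275 counts stood against 7, a ratio of 41.3 after scaling (exact 95% interval 19.8 to 104, counting error only), and in the remainder 165 against 7, a ratio of 24.8 (11.8 to 62.7). The adjusted p was 1.4e-06 in the difference and 7.5e-06 in the remainder (edgeR). No untreated or IL-4 library reached 10 counts, so *Gbp6* entered the test only through the parts in which it was high. *Gbp6* shares 70.7% of its 50-base stretches with other genes, most of all with *Gm43302*, which overlaps it, so reads counted on *Gbp6* depend on how shared reads were assigned.

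*Gbp9* had 280, 142 and 175 counts in untreated cells, 597, 409 and 284 in the difference and 271, 402 and 280 in the remainder. On the CPM scale the untreated libraries ranged from 9.13 to 15.0 and the remainder libraries from 16.8 to 24.7, so they stood apart by a small gap. The log2 fold change was 1.18 in the difference (adjusted p = 0.0012, edgeR) and 0.76 in the remainder (adjusted p = 0.019, edgeR). Without mouse 2 the latter was 0.44, and the call was lost. It was also lost at 0.78 without mouse 3, at 0.62 and 0.71 without the mouse 2 or mouse 3 untreated library, and at 0.58 without the mouse 2 remainder library.
*Gbp8* was the member that was not called in either part. It had 26, 9 and 14 counts in untreated cells, 40, 19 and 16 in the difference and 15, 32 and 20 in the remainder, and the groups overlapped. Its log2 fold changes were 0.68 (95% interval -0.21 to 1.58, adjusted p = 0.27, edgeR) and 0.54 (-0.37 to 1.44, adjusted p = 0.39, edgeR). These intervals include values as large as the rise of *Gbp9*. Without mouse 2 the log2 fold change in the remainder was -0.03.

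The IRGM genes, regulators of the other IRGs, rose by 1.77-fold to 2.26-fold in both parts. *Irgm1*, which is needed for resistance of mice to intracellular bacteria, had 1732, 1166 and 1476 counts in untreated cells, 3965, 3064 and 2405 in the difference and 3275, 3261 and 2658 in the remainder. The log2 fold changes were 1.18 (95% interval 0.93 to 1.42, adjusted p = 3.8e-06, edgeR) and 1.15 (0.91 to 1.39, adjusted p = 4e-06, edgeR), a change of 2.26-fold and 2.22-fold.
*Irgm2* had 953, 707 and 966 counts in untreated cells, 1830, 1449 and 1161 in the difference and 1559, 1594 and 1331 in the remainder. Its log2 fold changes were 0.82 and 0.84 (adjusted p = 0.00023 and 0.00015, edgeR).
*Igtp*, also called Irgm3, had 512, 392 and 407 counts in untreated cells, 938, 780 and 597 in the difference and 907, 839 and 631 in the remainder. It rose by 0.89 and 0.93 on the log2 scale (adjusted p = 7.4e-05 and 3.9e-05, edgeR). In each of these genes every Wnt3a-treated library was above every untreated library. *Irgm2* and *Igtp* overlap in part, and other genes, mainly each other, hold 7.83% and 11.8% of their 50-base stretches.

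In the difference the libraries of 9 of 10 members did not overlap with the untreated ones, against 39.2% of all genes tested, and in the remainder also 9 of 10, against 35.6%. If a change of 1 or more on the log2 scale were also required, the calls of *Irgm2* and *Igtp* in both parts and of *Gbp9* in the remainder would be lost.

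**Figure D3:**
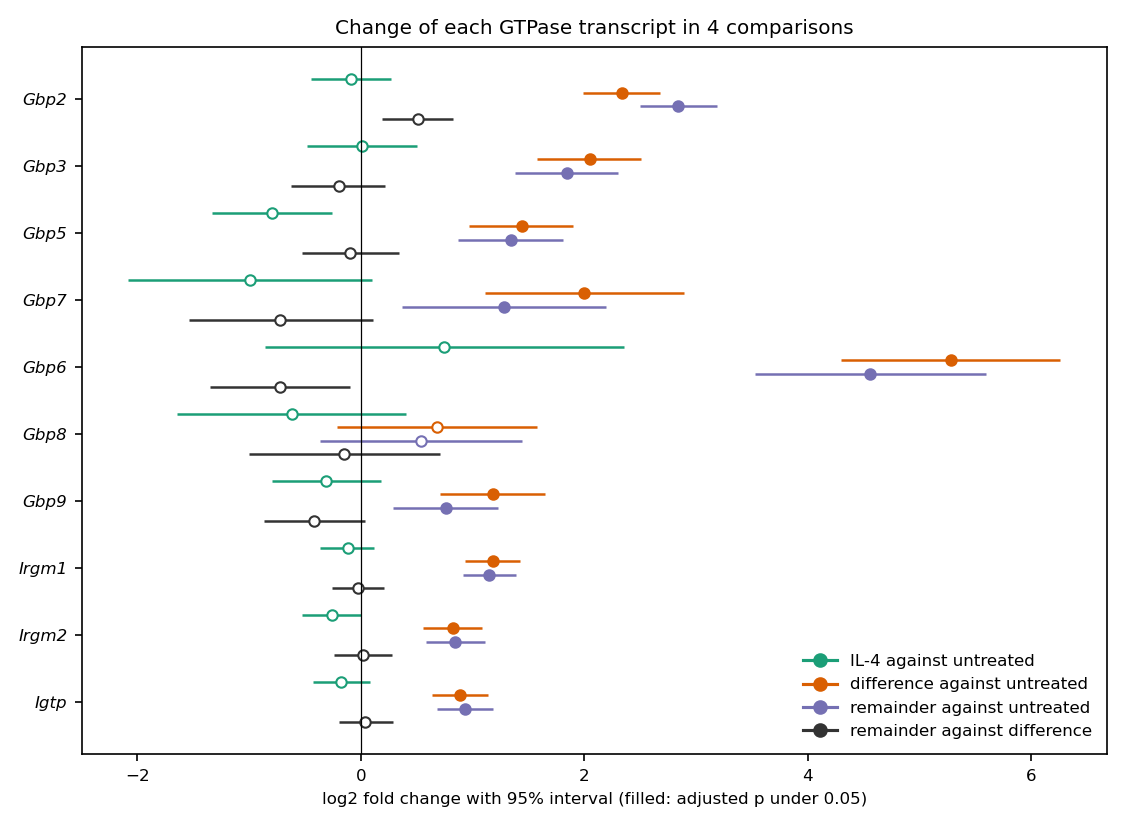
Log2 fold change of each GTPase with its 95% interval in 4 comparisons (filled points: adjusted p under 0.05). Points for both parts against untreated cells lie between 0.54 and 5.28, and those for IL-4 against untreated cells between -0.99 and 0.74.

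IL-4 alone left 0 of 10 members called, against 3.40% of all genes tested (edgeR, with 1 of 10 at an unadjusted p under 0.05; DESeq2 also called 0). The log2 fold changes ranged from -0.99 to 0.74 with a median of -0.22, and the median over all genes was 0.00. *Gbp5* came nearest to a call. It had 34, 35 and 30 counts with IL-4 against 81, 52 and 55 without, a log2 fold change of -0.80 (95% interval -1.33 to -0.26, adjusted p = 0.12, edgeR), with all 3 mice lower. The groups did not overlap for *Gbp5* and *Igtp*, 2 of 10 members against 19.8% of all genes tested. *Igtp* had 407, 357 and 306 counts with IL-4, and its log2 fold change was -0.18 (-0.43 to 0.08). *Gbp7* had a wide interval, from -2.08 to 0.10 around -0.99, and the abundant genes had narrow ones, such as -0.37 to 0.12 for *Irgm1* and -0.45 to 0.27 for *Gbp2*. When all genes with at least 1 count were tested, *Gbp5* (adjusted p = 0.012, edgeR) and *Gbp7* (adjusted p = 0.005, edgeR) were called lower with IL-4, among 812 genes called.

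The remainder and the difference were compared directly because cells of these parts differ in whether IL-4 was added to Wnt3a. None of the 10 members was called (0 of 10, against 5.25% of all genes tested by edgeR, with 2 of 10 at an unadjusted p under 0.05). DESeq2 called 1, *Gbp2*. *Gbp2* was higher in the remainder in 3 of 3 mice, by 0.38, 0.59 and 0.58 on the log2 scale, with a fitted value of 0.51 (95% interval 0.19 to 0.82, adjusted p = 0.065, edgeR). With the mouse as a block, *Gbp2* was called (0.52, adjusted p = 0.012, edgeR), and it was also called under DESeq2 (adjusted p = 0.026), with a correction for GC content (adjusted p = 0.026, edgeR), without mouse 1 (adjusted p = 0.034, edgeR) and without the mouse 1 difference library (adjusted p = 0.033, edgeR). *Gbp6* pointed the other way, with a log2 fold change of -0.72 (-1.35 to -0.10, adjusted p = 0.19, edgeR) and 3 of 3 mice lower in the remainder. Its libraries and those of *Gbp2* did not overlap between the parts, 2 of 10 members against 22.4% of all genes tested. *Gbp7* had -0.72 (-1.54 to 0.11), and without mouse 2 it was called at -1.26 (adjusted p = 0.033, edgeR). *Irgm1*, *Irgm2* and *Igtp* had -0.03 (-0.26 to 0.21), 0.02 (-0.24 to 0.28) and 0.04 (-0.20 to 0.29), so that any difference of these genes between the parts was small beside their rise over untreated cells.

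A test of whether the IL-4 effect differed with and without Wnt3a was run under both assignments of the parts. With Wnt3a alone taken to be the difference, and Wnt3a+IL-4 the remainder, 0 of 10 members passed, against 0.105% of all genes tested (edgeR, 2 of 10 at an unadjusted p under 0.05; DESeq2 also 0), and the values ranged from -1.47 for *Gbp6* to 0.70 for *Gbp5*. With the reverse assignment it was again 0 of 10, against 7.33% (edgeR, 3 of 10 at an unadjusted p under 0.05; DESeq2 also 0), with values from -0.42 for *Gbp2* to 1.71 for *Gbp7*. For *Irgm1* the intervals were -0.24 to 0.44 and -0.19 to 0.49, and for *Gbp6* in the first assignment -3.21 to 0.27, which leaves room for a large effect.

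The order of the members by level per kilobase of exon changed between groups. In untreated cells *Irgm1* (15.0 ± 1.77 CPM per kilobase), *Irgm2* (14.2 ± 2.07) and *Igtp* (12.9 ± 0.618) led and overlapped each other, and *Gbp2* followed at 6.48 ± 1.30 without overlap. *Gbp9* (2.27 ± 0.585) and *Gbp3* (2.18 ± 0.528) came next, then *Gbp5*, *Gbp7* and *Gbp8* between 0.560 and 0.276, and *Gbp6* was last at 0.0222. With IL-4 the IRGM genes and *Gbp2* kept these ranks, at 13.7, 11.8, 11.4 and 6.10 CPM per kilobase. In the difference *Gbp2* (32.8 ± 5.94) stood beside *Irgm1* (33.8 ± 4.69), with overlapping libraries. In the remainder *Gbp2* was first at 46.7 ± 5.18 CPM per kilobase, and its lowest library (41.0) was above the highest of *Irgm1* (35.0). *Gbp6* passed *Gbp8* in both parts, at 0.956 against 0.447 in the difference, where they did not overlap, and at 0.580 against 0.408 in the remainder, where they did.

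Members also varied together between mice of a group. Across the 12 libraries the log2 CPM of member pairs correlated between 0.694 and 0.988 (45 pairs, median 0.922), and after the group means were taken away 44 of 45 pairs were still above 0, with a median of 0.599 and a range from -0.0425 to 0.955. The highest value within groups was that of *Gbp3* with *Gbp7*, and the lowest that of *Gbp6* with *Irgm2*. These correlations are descriptions over libraries that share depth and base composition. No share over pairs of other genes stands beside them, so they do not set the members apart from other genes. In each library, the deviations of all genes from the group mean were also related to the GC content of the transcript, with a Spearman correlation across genes from -0.564 (mouse 2 remainder) to 0.603 (mouse 2 untreated). All members lie below the median GC content of the genes tested, 49.7%, from 41.1% for *Gbp6* and 41.7% for *Gbp7* to 49.5% for *Igtp*. Across the 12 libraries, the deviations of *Gbp7* and *Gbp9* followed this GC measure most closely (r = -0.910 and -0.870), and those of *Igtp* least (r = -0.187). The mouse 2 untreated library, with the strongest positive value, had *Gbp7* and *Gbp9* at 1.03 and 9.13 CPM, their lowest among untreated cells, and the mouse 2 remainder library, with the strongest negative value, had them at 9.53 and 24.7 CPM, their highest in the remainder. With a GC correction of each library, chosen after seeing the data, the log2 fold changes in the remainder were 1.43 for *Gbp7* (adjusted p = 0.0045, edgeR) and 0.89 for *Gbp9* (adjusted p = 0.00022, edgeR), and 9 of 10 members were called in each part. The part of GC content in the shared variation of members was not tested.

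**Figure D4:**
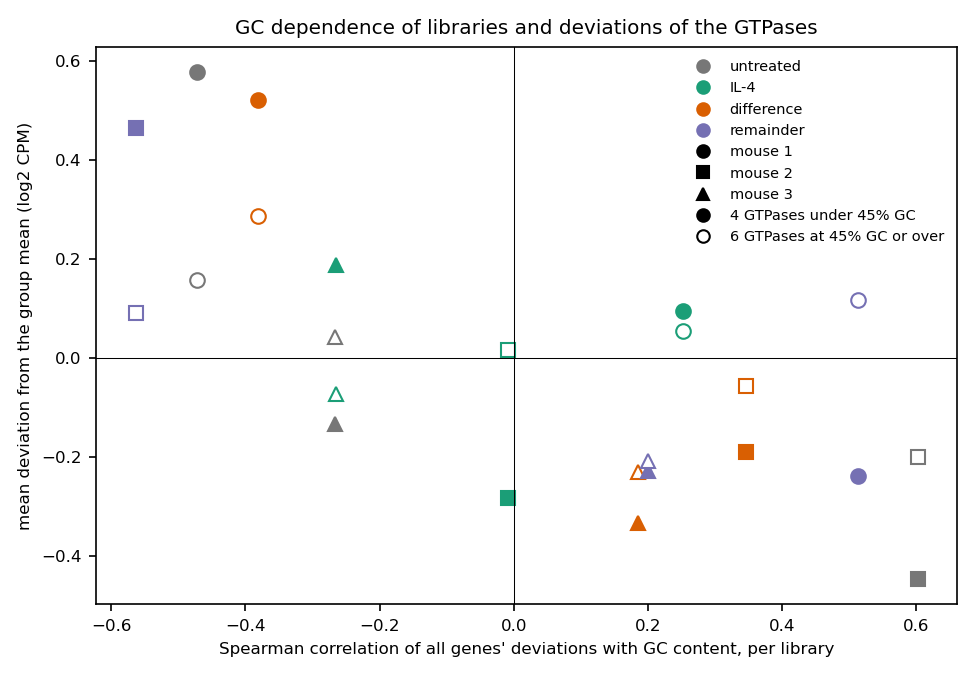
Mean deviation of the GTPases from their group mean (log2 CPM) in each library against the Spearman correlation of all genes' deviations with GC content; filled symbols are the 4 members under 45% GC and open symbols the other 6. The mouse 2 untreated library sits at 0.603 with a mean deviation of -0.445 for the 4 members, and the mouse 2 remainder library at -0.564 with 0.465; the 45% split was chosen after the values were seen.

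Other genes of both families were described from a list of 17, of which 10 passed the filter on low counts. In the difference 5 of these were called higher and 0 lower, with a median log2 fold change of 1.08, and in the remainder 6 and 0, with a median of 0.83. Among all genes tested, 11.8% were higher in the difference and 13.6% in the remainder. *Gbp4* was the most changed, with 11, 5 and 1 counts in untreated cells, 56, 32 and 23 in the difference and 36, 33 and 25 in the remainder. Its log2 fold changes were 2.74 (adjusted p = 0.0014, edgeR) and 2.52 (adjusted p = 0.0025, edgeR). Like *Gbp6*, it passed the count filter only through the parts in which it was high.
Of the effector IRGs, which attack vacuole membranes, *Ifi47* (also called Irg47) rose from 30.0 ± 5.71 to 74.9 ± 9.52 and 78.6 ± 9.23 CPM. *Gm12250*, the gene of Irgb10 that the annotation lists as a processed pseudogene, rose from 9.57 ± 1.24 to 26.5 ± 4.89 and 32.1 ± 1.67 CPM. *Tgtp2* rose by 1.30 and 0.94 on the log2 scale (adjusted p = 0.0059 and 0.036, edgeR), although other genes, mainly *Tgtp1*, hold 86.6% of its 50-base stretches. *Gm5431* rose by 0.87 and 0.71, and *Gm4951* was called in the remainder (1.83, adjusted p = 0.0092, edgeR) with 1.28 (adjusted p = 0.071, edgeR) in the difference. *Gm4951* too passed the count filter only through these parts.
*Iigp1*, the gene of the effector Irga6, had another pattern. It had 23, 5 and 17 counts in untreated cells, 0, 0 and 5 with IL-4, 24, 10 and 8 in the difference and 7, 12 and 6 in the remainder. The log2 fold changes in both parts were -0.03 and -0.75 and were not called (adjusted p = 0.98 and 0.41, edgeR), and that with IL-4 was -2.94 (95% interval -4.76 to -1.12, adjusted p = 0.086, edgeR). *Irgq*, *9930111J21Rik1* and *9930111J21Rik2* were not called in either part, at 0.13, 0.03 and 0.05 in the difference and 0.16, -0.82 and -0.75 in the remainder. *Gbp2b*, the gene of Gbp1, did not pass the filter, with 0, 0 and 1 counts in untreated cells, 2, 1 and 1 in the difference and 5, 7 and 4 in the remainder.

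The interferon path itself was read from a list of 33 ligands, receptors, kinases, transcription factors and inhibitors, of which 27 were tested. In the difference 13 were higher and 2 lower, and in the remainder 16 and 4. The shares of all genes tested that were called in either direction were 23.2% and 25.3%, with 11.8% and 13.6% higher. Among the ligands, *Ifng* had 0 counts in all 12 libraries and *Ifnb1* at most 3 in any library, so neither transcript was detectable beyond that at this depth. Genes that define T and NK cells, the usual makers of interferon-γ, were also near 0: 10 of the 12 in the list had at most 3 counts in every library, and 6 had 0 in all.
Of the receptor chains, *Ifngr1* fell from 254 to 162 and 139 CPM, log2 fold changes of -0.65 (adjusted p = 0.00019, edgeR) and -0.87 (adjusted p = 1.2e-05, edgeR). *Ifngr2* rose by 0.28 and 0.38 on the log2 scale. *Ifnar1* was called in the remainder alone (0.23, adjusted p = 0.029, edgeR; 0.12, adjusted p = 0.24, in the difference), and *Ifnar2* in neither (0.00 and 0.05).
*Jak2*, a kinase of the interferon-γ receptor, rose from 22.0 to 70.1 and 71.6 CPM, and *Jak1* was not called (0.20 and -0.03). *Stat2* rose from 100 to 242 and 276 CPM and *Irf9* from 93.8 to 128 and 139 CPM. *Irf1*, a transcription factor that binds ISRE-like motifs, rose by 0.38 (adjusted p = 0.017, edgeR) and 0.64 (adjusted p = 0.00037, edgeR), and *Irf8* was not called (-0.24 and -0.18).
The feedback inhibitor *Socs1* rose from 1.69 to 3.99 CPM in the difference (1.23, adjusted p = 0.0073, edgeR) and to 15.2 CPM in the remainder (3.15, adjusted p = 1.3e-06, edgeR), and it differed between the parts (1.92, adjusted p = 0.00036, edgeR). *Ptpn2*, a phosphatase that acts on JAK kinases, was not called (0.16 and -0.03).

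**Figure D5:**
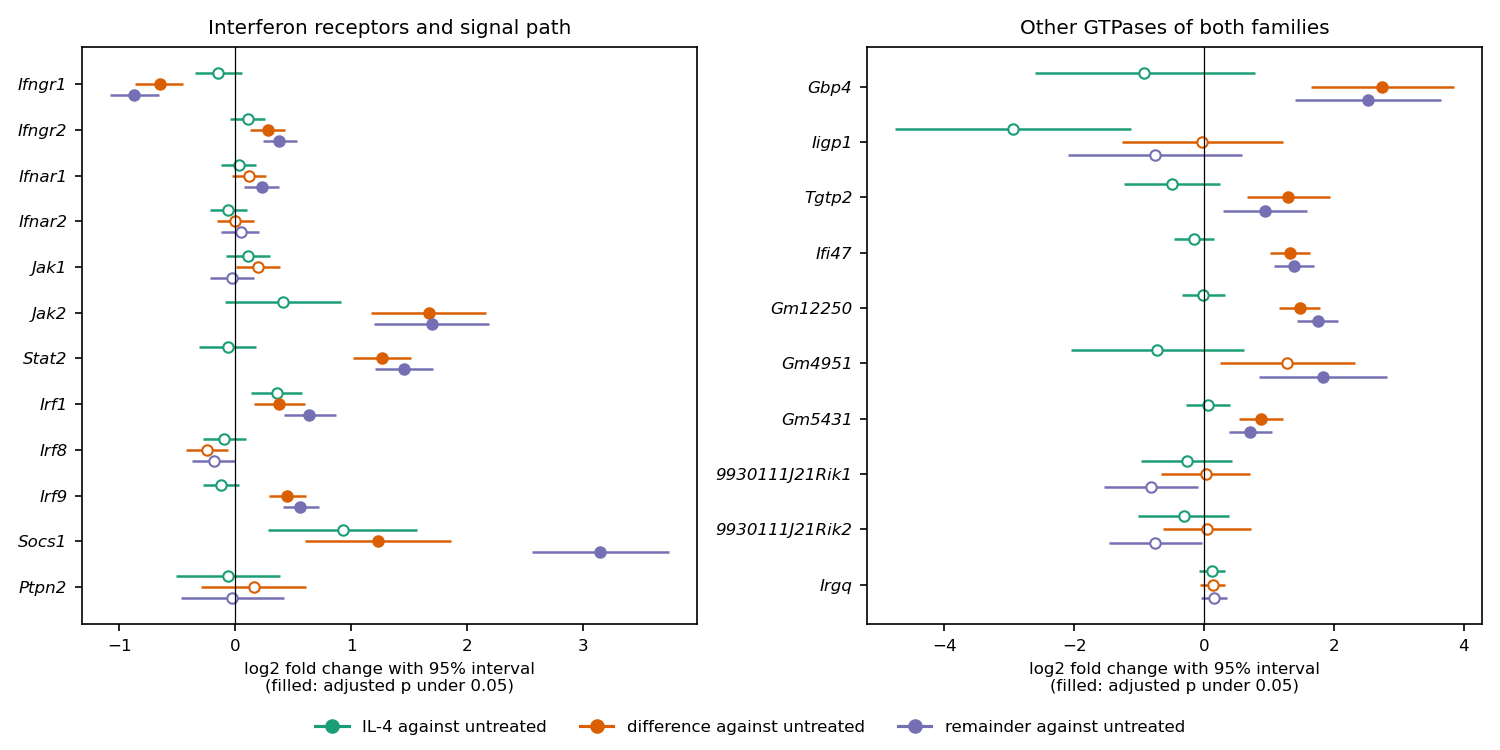
Log2 fold change with 95% interval of interferon path genes (left) and of the 10 other GTPases tested (right), for IL-4 and both parts against untreated cells (filled points: adjusted p under 0.05). *Jak2*, *Stat2*, *Irf9* and *Gbp4* lie to the right of 0 in both parts, *Ifngr1* to the left, and *Iigp1* at or left of 0.

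Known targets of interferons were read from further lists, chosen like the members with earlier results known. Of 24 tested genes in a list of interferon-γ targets, 21 were higher and 0 lower in the difference (median 1.07) and 23 higher and 1 lower in the remainder (median 1.11). Among all genes tested, 11.8% and 13.6% were higher. *H2-Ab1*, an MHC class II chain, rose by 3.04 and 3.57 on the log2 scale, *H2-Eb1* by 2.58 and 3.34, and *Ly6a* by 3.30 and 3.18. *Nos2*, which makes nitric oxide, had 1, 0 and 1 counts in untreated cells, 157, 90 and 28 in the difference and 161, 60 and 88 in the remainder. With IL-4 alone it had 2, 11 and 15 counts, so *Nos2* passed the count filter only through the parts in which it was high. So did *Cxcl9* and *Il12rb1*, and the targets counted as higher in both parts include *Nos2* and these genes. The genes not called in the difference were the chemokine gene *Cxcl10* (-0.30, adjusted p = 0.46, edgeR), *Wars* (0.18, adjusted p = 0.17, edgeR) and *Cd40* (-0.10, adjusted p = 0.70, edgeR; named after its values were seen). *Cxcl10* was the 1 gene of the list that fell in the remainder (-1.12, adjusted p = 0.008, edgeR). Of 32 type I interferon targets, 26 were higher in the difference (median 1.33) and 25 in the remainder (median 1.12), with 0 lower, and *Irf7* (3.12 and 3.27), *Zbp1* (2.51 and 2.6) and *Oasl1* (2.17 and 2.54) were among the highest. With IL-4 alone, 5 interferon-γ targets were higher and 1 lower, and 0 type I targets were called, against 3.40% of all genes tested.

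Genes with which GBPs and IRGs work were counted in the same way. Among all genes tested, 23.2% were called in either direction in the difference (11.8% higher) and 25.3% in the remainder (13.6% higher). A list of autophagy conjugation genes, autophagy receptors and ubiquitin ligases had 2 of 20 higher and 4 lower in each part, with medians of -0.05 and -0.04. The calls in this list were thus near the shares over all genes. The ubiquitin ligase gene *Rnf213* rose (1.07 and 1.47), as did the conjugation gene *Atg5* (0.31 and 0.28). The receptor genes *Optn* (-0.76 and -0.60) and *Calcoco1* (-0.28 and -0.31) fell, as did *Gabarapl2* (-0.69 and -0.58) and *Gabarapl1* (-0.29 and -0.27), whose products are conjugated to membranes. Of 18 genes of the caspase-11 path and inflammasomes, 8 were higher and 1 lower in the difference, and 7 and 1 in the remainder. *Il1b* rose by 3.30 and 1.74, and *Mefv* by 1.89 and 2.15, while the sensor *Nlrp3* fell by 0.29 and 0.84. Of 10 genes for prenylation, which adds the lipid anchor of some GBPs, 3 were higher and 1 lower in the difference and 4 and 1 in the remainder, led by the isoprenoid enzyme *Fdps* (1.61 and 1.71).

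The genes outside the members whose pattern over the 12 libraries was most like the mean pattern of the 10 members by Pearson correlation were *Ddx58*, *Rtp4*, *Fgl2*, *Phf11d*, *Oasl2*, *Ms4a6b*, *Clec4e*, *Sp100*, *Cd86* and *Ms4a4c*, with values from 0.984 to 0.990 among 12411 genes. By Spearman correlation, 1 of these 10, *Phf11d*, was also among the 10 highest. *Ddx58*, which encodes the RNA sensor RIG-I, went from 87.7 CPM in untreated cells to 227 and 211 CPM, and *Oasl2* from 97.8 to 455 and 457 CPM. Such values describe the contrast of Wnt3a-treated with other libraries, and 309 genes reached 0.9 or more.

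Markers were as labelled for macrophages, and *Lyz2*, *Csf1r* and *Adgre1* were abundant in every group. The summed level of 8 macrophage markers was 51200 to 58400 CPM in untreated, 44000 to 52200 in IL-4, 58400 to 68600 in difference and 57500 to 57900 in remainder libraries, with 4 of 8 called higher in the difference and 2 of 8 in the remainder. Among all genes tested, 11.8% and 13.6% were higher. Summed T and NK cell markers lay between 1.80 and 5.53 CPM in all libraries, and *Cd4* was the 1 gene of the 12 that passed the count filter. The summed level of 5 B cell markers went down with treatment, from 76.8 to 84.9 CPM in untreated libraries to 34.1 to 46.2 with IL-4, 8.13 to 14.0 in the difference and 8.20 to 9.66 in the remainder. *Ighm* gave 77.1 CPM of it in untreated cells and 5.06 CPM in the remainder, and *Ms4a1*, which encodes the B cell marker CD20, had at most 1 count in any library. Neutrophil markers ranged from 19.5 to 41.1 CPM, dendritic cell markers from 0.727 to 2.40 CPM and stromal cell markers from 7.71 to 32.9 CPM. Within these lists single genes moved with the parts, named here after their values were seen. The dendritic cell marker *Cd209a* had 24, 20 and 11 counts in untreated cells, 0 in each library of the difference, and 3, 0 and 0 in the remainder, and *Zbtb46* rose in the remainder (1.56). The endothelial marker *Pecam1* rose by 1.62 and 2.83 on the log2 scale, and *Cxcl12* fell (-2.71 and -2.49). In the remainder the neutrophil markers *S100a9* (-0.68) and *Camp* (-0.88) fell. The part of these markers in the rise of the GTPases was not tested. Summed IL-4 response markers were 49.8 to 82.5 CPM in untreated, 268 to 355 in IL-4, 37.1 to 52.1 in difference and 175 to 191 in remainder libraries, and these values were not used to assign the parts. Among them, named after their values were seen, *Arg1* had 0, 1 and 0 counts in the difference and 402, 97 and 114 in the remainder. *Mgl2* was 10.2-fold and *Mrc1* 5.02-fold higher in the remainder than in the difference (adjusted p = 5.9e-05 and 1.4e-05, edgeR). The other 3 of the 6 markers were not called between the parts. Their log2 fold changes were 0.38 for *Chil3* (adjusted p = 0.11, edgeR), 2.64 for *Ccl17* (adjusted p = 0.08, edgeR) and 0.0 for *Retnla*. Against untreated cells *Retnla* was 10.56 with IL-4 alone and 0.05 in both parts. Of 5 Wnt target genes, 1 passed the count filter, *Rnf43*. It was lower in both parts than in untreated cells (-1.28 and -1.34, adjusted p = 0.011 and 0.0076, edgeR). The summed level of the 5 was 1.07 to 1.54 CPM in untreated, 0.577 to 0.899 in IL-4, 0.488 to 0.8 in difference and 1.06 to 1.31 in remainder libraries.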

How the data were processed

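RNA-seq of BMDMs from 3 mice was analysed in 12 samples. The authors deposited raw counts per gene, without normalization; the submitters' processing notes name Trimmomatic 0.36, STAR 2.6.0, SAMtools 1.9, HTSeq 0.11.1 and the mm10 build, for single reads. Counting of reads shared by genes depends on these settings, which are not given in the sources used here. The deposited count table holds 48526 genes, of which 48058 were paired with a symbol, and 0 columns were left unused. GC content, positions and exon lengths came from GENCODE vM21 of the same build.

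The difference and remainder were solved for each mouse, and 12421 genes that reached 10 counts in 3 or more of 12 libraries were tested in 1 fit by the quasi-likelihood test of edgeR 4.0.16 (R 4.3.3, TMM scaling, no mouse term, adjusted p under 0.05). The log2 values for correlations used a prior count of 2. DESeq2 1.42.0 and other scalings, filters, thresholds, left-out libraries, the deposited columns and the mouse as a block were alternatives. On simulated counts with 200 changed genes in the difference against untreated cells, 192 (96%) were recovered among 202 genes called. The changed genes were drawn from those with higher counts, with a single spread for all genes and without mouse or GC effects. The share recovered thus does not describe members with low counts. Samples of a mouse come from the same animal per the labels: deviations from group means correlated between -0.417 and 0.454 in 18 pairs, 6 of them over 0.1. Total counts set the precision, and counting intervals cover counting error only.

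All members and the genes of the families that passed the filter are named, with fixed genes of the interferon path and at most the 3 highest and 3 lowest called genes of every other list. The members and lists were chosen with earlier results of these data known. Comparisons with untreated cells share those libraries. Some items named by this rule are not reported here. The GC correction fitted a lowess curve of span 0.3 per library.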

Additional observations from a re-analysis of the deposited data

Results flagged for a closer look

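A test of the difference between the IL-4 effect without Wnt3a and the difference between the parts marked named genes that are not members, all under the assignment that takes the remainder as Wnt3a and the difference as Wnt3a+IL-4 (edgeR, adjusted p under 0.05). No member was among them. The values, on the log2 scale, were -2.84 for *Socs1* (adjusted p = 0.00028, edgeR), -0.62 for *Irf1* (adjusted p = 0.018, edgeR), -1.74 for *H2-Eb1* and -1.74 for *H2-Ab1*, -0.59 for *Psmb10*, 1.98 for *Cxcl10*, 1.86 for *Il1b*, 1.31 for *Nlrp3*, 0.51 for *Ncf1* and 0.90 for *Clec4e*. Among the marker and list genes named after their values were seen, they were -13.3 for *Arg1*, which had 0 to 2 counts in each untreated and difference library, -7.15 for *Mgl2*, -4.47 for *Mrc1*, -2.67 for *Pecam1*, -2.17 for *Zbtb46*, -0.91 for *Cd40* and 1.73 for *Ighm*. Under the opposite assignment none of these genes passed (edgeR), with values such as 0.99 for *Socs1* (adjusted p = 0.31, edgeR) and -0.10 for *Irf1* (adjusted p = 0.86, edgeR). On the log2 scale *Arg1*, *Mgl2* and *Mrc1* rose by 4.51, 3.81 and 2.14 with IL-4 alone. They also rose by 8.8, 3.34 and 2.33 in the remainder against the difference. Taking the difference as Wnt3a+IL-4 reverses the sign of the latter values. The negative values of *Arg1*, *Mgl2* and *Mrc1* thus add rises of the same direction.

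For *Oasl1*, all 3 mice were lower with IL-4 than untreated, and all 3 were higher in the remainder than in the difference. The test of that difference gave 1.19 under the first assignment and was not called (adjusted p = 0.22, edgeR).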

How the results depend on the processing

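In the difference against untreated cells, 9 members were called in every alternative except that 7 were called when a log2 change of 1 or more was required. In the remainder against untreated cells, *Gbp7* lost its call under total-count scaling (1.17), in a fit of the compared groups alone (1.27) and with the mouse as a replicate block (1.30), and *Gbp9* lost it under total-count scaling (0.65). The cause was not tested. At an adjusted p under 0.01 *Gbp7* and *Gbp9* were not called in the remainder either (adjusted p = 0.04 and 0.019, edgeR). There 7 of 10 members were called higher, against 1144 of the 12421 genes tested. Values of *Gbp7* were from 0.49 to 1.69 with single mice or libraries left out, of *Gbp9* from 0.44 to 1.10 and of *Gbp8* from -0.03 to 1.16, and the members called were from 7 to 9.

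With all genes of at least 1 count, the genes called were 812 for IL-4, 1454 for the remainder against the difference, 575 for the first interaction and 1505 for the other, while the members called were 2, 4, 1 and 3 of 10. The number of genes tested under this filter is not reported here, so no share of all genes stands beside these member counts. With the Wnt3a columns as deposited the genes called were 708, 0, 142 and 311, where the 0 comes from columns that share reads. The GC correction gave 700 genes for IL-4, 1028 for the remainder against the difference and 103 for the first interaction, and with the replicate block 768, 994 and 113. The replicate block with the GC correction called 1 member for IL-4 (*Gbp5*), 1 in the remainder against the difference (*Gbp2*), 1 in the first interaction and 2 in the other. *Gbp2* was also the 1 member called in the remainder against the difference by DESeq2, by the replicate block and by the GC correction. DESeq2 called 165 genes in the first interaction, and the fit of the compared groups alone 422 in the remainder against the difference. At an adjusted p under 0.01 the genes called were 227, 1687, 1960, 279, 0 and 472 in the order IL-4, difference, remainder, remainder against difference, first and other interaction, and with a log2 change of 1 or more 133, 842, 917 and 184 in the first 4 and 423 in the last.

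With single mice or libraries left out, the genes called were from 77 to 333 for IL-4, 1220 to 2464 for the difference, 1375 to 3807 for the remainder, 97 to 1188 for the remainder against the difference, 0 to 43 for the first interaction and 265 to 1459 for the other. The members called were from 0 to 1 in the remainder against the difference and from 0 to 1 in the other interaction. Some values near 0 changed sign. With IL-4, *Gbp3* was -0.05 under total-count scaling and -0.01 under the GC correction with or without the block, and left-out libraries gave -0.28 to 0.10 for *Gbp2* and -0.19 to 0.16 for *Gbp3*. Between the parts, *Irgm1* was 0.04 under the GC correction with or without the block and *Gbp8* 0.05 with both. Left-out libraries there gave -0.40 to 0.04 for *Gbp3*, -0.26 to 0.19 for *Gbp5*, -0.63 to 0.50 for *Gbp8*, -0.10 to 0.09 for *Irgm1*, -0.04 to 0.13 for *Irgm2* and -0.05 to 0.16 for *Igtp*. The block changed no other member's call. *Gbp6* could not be tested for IL-4 in the compared groups alone, since it did not pass the count filter there. Low counts limit the values of *Gbp6*, *Gbp8*, *Gbp4* and *Iigp1*.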
